A study of Mus musculus with 2 samples.

Results

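The hemoglobin and erythroid genes described here are 9 genes of the red cell lineage, of 37074 gene names carried by the non-control probes of a mouse expression array. They were chosen by gene name: the adult alpha-globin genes Hba-a1 and Hba-a2, the adult beta-globin genes Hbb-b1 and Hbb-b2, and the precursor-stage genes Ahsp, Alas2, Slc4a1, Klf1 and Epor. They are represented by 12 probes and 39 spots on each array, because the 3 alpha-globin probes are printed 10 times each. The noise sample was cochlear total RNA from female C57BL/6 mice, 7 weeks old, taken 3 hours after a 2-hour noise exposure. The baseline sample was cochlear total RNA from mice of the same strain, sex and age without noise. Each group had 1 array, the labels do not say how many mice each sample holds, and no difference below could be tested across animals. A difference of 2-fold was used as the size rule in place of a test.

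Adult hemoglobin is a tetramer of alpha and beta chains, each carrying heme. Its genes are transcribed in nucleated erythroid precursors of the bone marrow under GATA1 and KLF1, and the mRNA persists in reticulocytes after the nucleus has been lost. The membrane gene Slc4a1, the heme enzyme gene Alas2 and the alpha-chain chaperone gene Ahsp are used in hemoglobin-making precursors. Epor and Klf1 encode the receptor for erythropoietin and a lineage transcription factor. The cochlea lies in bone and is rich in blood vessels, so both circulating red cells and marrow can contribute such transcripts to a dissected sample. In bulk RNA, fewer cells of a type and less RNA per cell cannot be told apart.

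The probe sequences decide which globin gene a signal can be credited to. The Hba-a1 probe within the coding sequence and the Hbb-b2 probe are shown because both cover the stretch around the heme-binding distal histidine, whose codon, in the single open reading frame of each probe, is in capitals. The Hba-a1 probe lies at chr11:32183955-32184014 on the plus strand (mm9), and the files give no mm9 position for the Hbb-b2 probe.
Hba-a1 probe: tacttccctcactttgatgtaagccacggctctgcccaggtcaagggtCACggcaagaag
Hbb-b2 probe: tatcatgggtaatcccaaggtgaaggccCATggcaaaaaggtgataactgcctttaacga

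All 3 alpha-globin probes list the transcripts of both Hba-a1 and Hba-a2 as their targets. The 3' probes named Hba-a1 and Hba-a2 share a run of 59 of their 60 bases, being shifted by 1 base. The array therefore gives 1 alpha-globin measurement under several names, and it does not separate the genes. The beta-globin names also need care, because C57BL/6 mice carry the single-type beta-globin locus with the genes Hbb-bs and Hbb-bt, while Hbb-b1 and Hbb-b2 belong to the diffuse-type locus of other strains. The probe named Hbb-b1 lists the transcripts of Hbb-b1 and Hbb-bs. It covers the 5' end of the transcript, with 49 bases before the start codon, and 46 of its bases run unbroken through the start of Hbb-bs as given by RefSeq (GRCm38.p6), up to the end of the stretch that was compared. Its longest shared run with the start of Hbb-bt is 12 bases. The probe named Hbb-b2 lists Hbb-b1 and Hbb-b2. No other probe of the array shares 30 bases with any of the 12 probes.

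Globin signals were high on both arrays and differed little between them. The coding alpha-globin probe (Hba-a1) had a lowest, median and highest processed signal of 121714, 130718 and 157954 over 9 unflagged spots on the noise array, against 116795, 128480 and 147854 over 10 spots on the baseline array. The processed signal is the scanner software's background-subtracted brightness of a spot on a linear scale. The spots of the noise and baseline arrays overlapped over most of their range. After each array was scaled to its 75th percentile, the log2 ratio (noise minus baseline) of this probe was -0.13 ± 0.055, where the error is the SE over repeat spots. This SE treats the spots of the arrays as independent, although spots at the same position tended to be high or low on both. It holds no error between animals.

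The Hba-a1 probe at the 3' end had 108895, 128835 and 140019 on the noise array (10 spots) and 112105, 133479 and 146254 on the baseline array (9 spots). The Hba-a2 probe, which is almost the same sequence, had 105290, 124386 and 132904 on the noise array (10 spots) and 109292, 124394 and 137465 on the baseline array (9 spots). The spots of the arrays overlapped for both probes as well. Their scaled log2 ratios were -0.24 ± 0.062 and -0.22 ± 0.054 (SE over repeat spots). Before scaling the 3 alpha-globin ratios were 0.056, -0.053 and -0.032, so most of each scaled difference came with the scaling, which subtracted 0.18 for the brighter noise array.

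**Figure D1:**
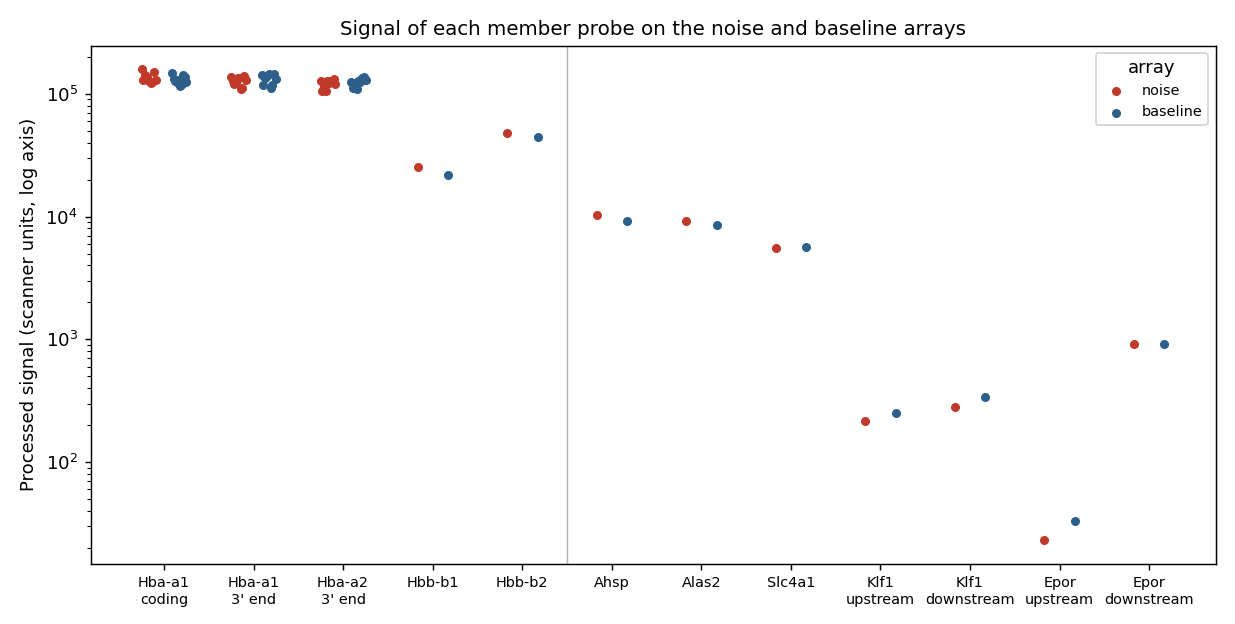
Processed signal (scanner units, log axis) of each of the 12 probes, with the noise array in red at the left of each pair and the baseline array in blue at the right. The alpha-globin probes show their unflagged repeat spots, which overlap between the arrays, and every other probe has 1 spot per array.

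The repeat spots of the alpha-globin probes behaved unlike those of most other repeated probes. Over the 300 probes printed 10 times each, the SD of log2 signal between spots had a median of 0.124 after noise and 0.139 at baseline in the uncorrected mean pixel signal, and 0.046 and 0.051 in the processed signal, so the software's background and detrending steps usually narrowed the spread. For the 3 alpha-globin probes they widened it. Their SDs were 0.035, 0.057 and 0.053 before correction and 0.13, 0.13 and 0.12 after it on the noise array. On the baseline array they were 0.049, 0.033 and 0.024 before correction and 0.11, 0.14 and 0.12 after it. Of the 300 probes, 9 after noise and 10 at baseline were tighter before correction, the 3 alpha-globin probes among them. Of the repeated probes, 4 had a median uncorrected signal above 100000 on each array, and all 4 were tighter before correction. These 4 include the 3 alpha-globin probes themselves, so the count adds little to theirs. No pixel of these spots reached the scanner's saturation value of 777073. The cause was not tested, nor was whether signals this bright follow the amount of transcript in proportion.

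**Figure D2:**
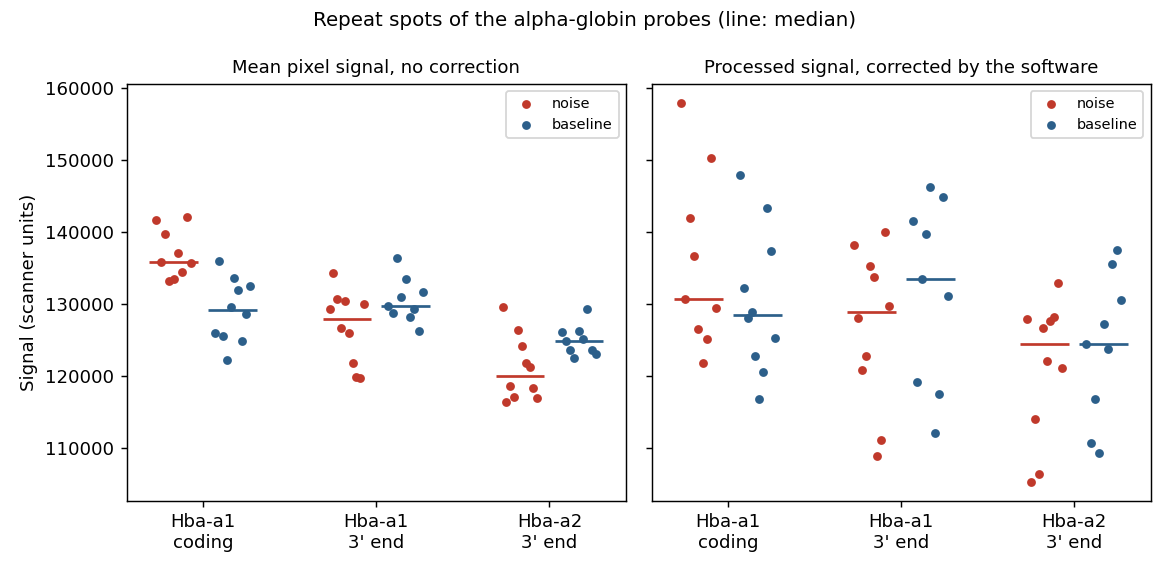
Repeat spots of the 3 alpha-globin probes in scanner units, as uncorrected mean pixel signal (left panel) and as processed signal (right panel), noise array in red left of the baseline array in blue, with a line at the median. The processed values spread more widely than the uncorrected ones in every probe on both arrays.

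The beta-globin probes had 1 spot each. The Hbb-b1 probe had a processed signal of 25244 after noise and 21986 at baseline, and a scaled log2 ratio of 0.016. The Hbb-b2 probe had 47619 after noise and 44411 at baseline, and a scaled log2 ratio of -0.083. The probe of Hbb-bt, a beta-globin gene of this strain that was added after its value was seen, had 121055 after noise and 112207 at baseline, with a scaled log2 ratio of -0.074. All 3 beta-globin probes were brighter on the noise array before scaling and within 0.1 of 0 on the log2 scale after it.

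Ahsp, which encodes the chaperone that holds free alpha chains, had a processed signal of 10377 after noise and 9261 at baseline, a scaled log2 ratio of -0.019. Alas2, which encodes the erythroid form of the enzyme that opens heme synthesis, had 9170 after noise and 8480 at baseline, a scaled log2 ratio of -0.070. Slc4a1, which encodes band 3, the anion exchanger of the red cell membrane, had 5569 after noise and 5650 at baseline, a scaled log2 ratio of -0.20. The software's own error for Ahsp was 1038 after noise and 926 at baseline, for Alas2 917 and 848, and for Slc4a1 557 and 565. Before scaling, the gap between the arrays was larger than the software error of either array for Ahsp and smaller than both for Alas2 and Slc4a1.

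The lowest ratios belonged to Klf1 and Epor. The upstream Klf1 probe had a processed signal of 218 after noise and 253 at baseline, and the downstream Klf1 probe had 280 after noise and 342 at baseline. Their scaled log2 ratios were -0.40 and -0.47, and their median put Klf1 1.35-fold lower after noise. The downstream Epor probe had 913 after noise and 922 at baseline, a scaled log2 ratio of -0.20. The upstream Epor probe was dim, at 23.1 after noise and 33.0 at baseline with software errors of 2.57 and 3.48, and its ratio was -0.70. The gene value of Epor, the median of both probes, was -0.45, and it was -0.20 when only the brighter probe was used. The upstream probes of Klf1 and Epor are printed as 1 probe each of the genes with the lowest ratios. They lie at chr8:87427100-87427159 (plus strand) and chr9:21766036-21766180 (minus strand) in mm9. The Epor probe spans 145 genomic bases, more than its 60, as a probe across an exon junction does.
Klf1 upstream probe: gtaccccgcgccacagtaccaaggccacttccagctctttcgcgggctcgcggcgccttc
Epor upstream probe: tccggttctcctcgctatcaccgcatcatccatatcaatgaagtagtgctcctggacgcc

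None of the 9 genes reached 2-fold (0 of 9), where 1.86% of the 26528 genes measured on both arrays did so in either direction. All 9 lay inside the central 95% of all genes, which ran from -0.77 to 0.63, and 5 lay inside the central 50%, from -0.19 to 0.15. A log2 ratio below 0 was found for 8 of the 9 genes, where 52.5% of all measured genes lay below 0 and their median was -0.014. Hba-a1 and Hba-a2 are counted apart here, although they are 1 alpha-globin measurement. The direction depends on the scaling, since with spike-in scaling 5 of the 9 lay below 0 while the all-gene median stood at 0.16. Spike-in scaling shifts every gene by the same amount. The count below the all-gene median, 8 of the 9, was therefore bound to be the same in both scalings. With the normexp background 5 of 9 lay below the median of all genes.

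The ranges of the globins and the precursor-stage genes overlapped. The 4 globin names had log2 ratios from -0.22 to 0.016 with a median of -0.13, and the 5 precursor-stage genes had ratios from -0.45 to -0.019 with a median of -0.20. Hba-a1 and Hba-a2, which are 1 alpha-globin measurement, both enter the globin median. The difference of the medians, globins minus precursor-stage genes, was 0.072, or 1.05-fold. It ran from 0.059 to 0.19 over the alternatives, with the precursor-stage median the lower in each. Median scaling, spike-in scaling and the value table shift all genes equally, so they could not change this difference. Leaving out the dim-probe filter could not change it either, since every member probe was well above background on both arrays. With 1 array per group this difference has no error of its own. Between probes of the same gene, the log2 ratio had an SD of 0.27 (9348 genes), which describes single probes and not medians. With only 2 arrays, likeness to the globins comes down to a single ratio: 6999 measured genes (26.4%) lay within 0.1 of the globin median, so none is named.

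**Figure D3:**
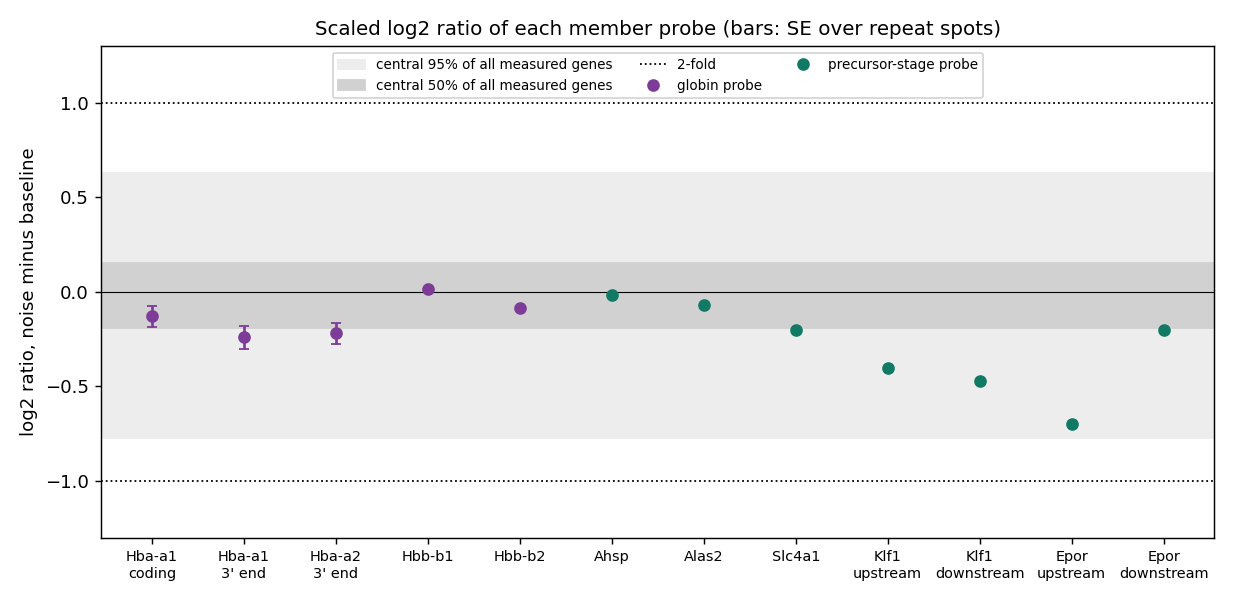
Scaled log2 ratio (noise minus baseline) of each probe, globins in purple and precursor-stage genes in green, with the central 50% and 95% of all measured genes as grey bands and 2-fold as dotted lines. Error bars on the alpha-globin probes are the SE over repeat spots, the other probes have 1 spot per array, and no probe reaches 2-fold.

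Promoters of the members are shown to let their shared and differing erythroid motifs be read. RefSeq promoter entries (GRCm38.p6) were matched for 5 of the 9 members, namely Hba-a1, Hba-a2, Alas2, Epor and Klf1, and Hbb-bs stands here for the beta-globin locus of this strain. The 300-base entries of Hba-a1 and Hba-a2 share an unbroken run of 297 bases. Each line gives the 150 bases before the transcript start, 5' to 3' on the gene's strand, with capitals for GATAA (the core bound by GATA factors), for CACCC (the core bound by KLF factors), for the CCAAT box and for the TATAA box, on either strand. None of the marked motifs overlap one another. The windows are chr11:32283522-32283671 (plus strand) for Hba-a1, chr7:103827929-103828078 (minus) for Hbb-bs, chrX:150547267-150547416 (plus) for Alas2, chr8:84901832-84901981 (plus) for Klf1 and chr9:21963577-21963726 (minus) for Epor.
Hba-a1: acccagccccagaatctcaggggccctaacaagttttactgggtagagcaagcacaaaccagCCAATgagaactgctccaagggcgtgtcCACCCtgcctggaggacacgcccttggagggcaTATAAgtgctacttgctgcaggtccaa
Hbb-bs: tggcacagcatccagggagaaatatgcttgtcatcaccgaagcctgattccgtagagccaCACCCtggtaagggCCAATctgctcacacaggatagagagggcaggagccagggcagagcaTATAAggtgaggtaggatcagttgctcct
Alas2: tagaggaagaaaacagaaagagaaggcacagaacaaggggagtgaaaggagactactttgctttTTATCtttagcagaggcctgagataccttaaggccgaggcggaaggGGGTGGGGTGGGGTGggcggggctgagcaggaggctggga
Klf1: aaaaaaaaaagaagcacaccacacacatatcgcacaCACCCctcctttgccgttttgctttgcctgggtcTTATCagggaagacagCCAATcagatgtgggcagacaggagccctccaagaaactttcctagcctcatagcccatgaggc
Epor: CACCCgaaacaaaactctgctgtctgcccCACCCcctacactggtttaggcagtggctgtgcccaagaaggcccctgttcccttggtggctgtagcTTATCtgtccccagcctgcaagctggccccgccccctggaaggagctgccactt

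The globin promoters shared the CCAAT box, the CACCC core and the TATAA box in these windows. The CACCC core also stood in the windows of Alas2, Klf1 and Epor, and the CCAAT box also in that of Klf1. The TATAA of Hba-a1 began 27 bases before the start and that of Hbb-bs 29 bases before it. The windows of Alas2, Klf1 and Epor each held 1 GATAA on the minus strand, printed as TTATC, beginning 86, 80 and 54 bases before the start, and none of them held TATAA. Over the 32851 promoter entries, a window of this length held GATAA in 13.3% of entries, the CACCC core in 37.4%, the CCAAT box in 24.5% and the TATAA box in 14.2%, on either strand. These matches describe letters and are not binding sites shown by these data.

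Other genes of the red cell pathway were read from 7 lists with 81 entries, of which 78 genes were measured on both arrays. Their median log2 ratio was -0.075, 31 lay above 0 and 47 below, none was at least 2-fold higher (0.611% of all measured genes were) and 2 were at least 2-fold lower (1.25% of all measured genes were). Both lower genes stood in the late erythroid and reticulocyte list. Trim58, which encodes a ubiquitin ligase of maturing erythroid cells, had a processed signal of 18.7 after noise and 76.0 at baseline, 4.62-fold lower (log2 ratio -2.21). With the normexp background it was at -0.91, under 2-fold, and the stricter filter on dim probes left it out. Hebp1, which encodes a heme-binding protein of many tissues, had 516 after noise and 1061 at baseline, 2.34-fold lower (-1.22). Each had 1 probe. The median of this list was -0.078 over 16 genes.

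Heme synthesis genes all lay a little below 0. The list, which also holds mitochondrial carriers and Alas1, the enzyme used outside the red cell lineage, had 12 of 12 genes below 0 with a median of -0.18 and none past 2-fold, where 52.5% of all measured genes lay below 0. Cpox, which encodes coproporphyrinogen oxidase, was lowest at -0.56, followed by Tmem14c, a mitochondrial porphyrin carrier gene, at -0.28 and Ppox, the next enzyme after Cpox, at -0.27. The direction depends on the scaling: with spike-in scaling 7 of 12 lay below 0 with a median of -0.0067, and with median scaling 11 of 12. Set against the median of all genes, 11 of 12 lay below it as reported. Spike-in scaling could not change that count, since it shifts every gene equally. With the normexp background 10 of 12 lay below the median of all genes.

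Iron uptake genes had a median of -0.13 over 6 genes, 4 of them below 0. Tfr2, the transferrin receptor 2 gene, had a log2 ratio of -0.59, and Tfrc, which encodes the receptor that brings iron into erythroid precursors, had -0.44. The Tfrc probes disagreed (-0.87 and -0.011), and the brighter gave -0.011. Ireb2, an iron-sensing regulator gene, had 0.29. The red cell membrane list had a median of -0.14 over 18 genes, 13 below 0 and none past 2-fold. Its widest values were 0.79 for the beta-spectrin gene Sptb (0.43 with the normexp background), -0.46 for the ankyrin gene Ank1 and -0.38 for the Rh-associated glycoprotein gene Rhag. The 5 Ank1 probes ran from -0.49 to 0.16, and with the normexp background Ank1 was at -0.24. With spike-in scaling the medians of the iron and membrane lists were 0.049 and 0.033.

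Erythroid transcription factors had a median of 0.030, with 7 of 12 above 0 and none past 2-fold. Gfi1b and Tal1, factors of the erythroid and megakaryocyte branch, had log2 ratios of -0.50 and -0.39, and Myb, a factor of early progenitors, had 0.38. Genes of erythropoietin signalling had a median of 0.073 over 10 genes, 7 above 0 and none past 2-fold. The feedback inhibitor gene Socs2 was at 0.47, the signal transducer gene Stat5b at 0.31 and the kinase gene Lyn at 0.25. Epo, the hormone gene itself, did not stand well above background on the noise array or the baseline array.

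The embryonic globin genes were near the lower limit of measurement. Hbb-y had a processed signal of 12.9 after noise and 9.64 at baseline (log2 ratio 0.24), and Hbb-bh1 had 12.2 after noise and 9.44 at baseline (0.19). With the normexp background Hbb-y was at -0.089 and Hbb-bh1 at -0.080, and with no filter on dim probes Hbb-bh1 was at -0.29. Hba-x, the embryonic alpha-like gene, did not stand well above background on the noise array or the baseline array. Hbq1b, a minor alpha-like globin gene, had 85.1 after noise and 71.1 at baseline (0.077). The median of the 4 measured genes was 0.13, and none reached 2-fold.

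**Figure D4:**
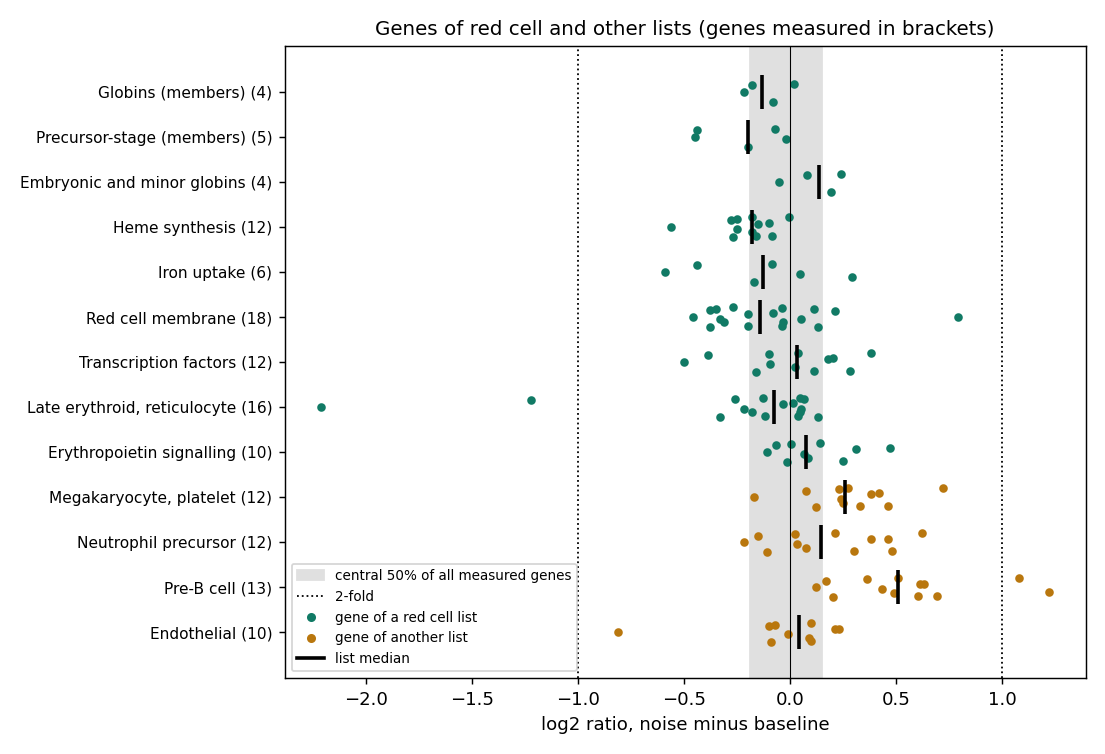
Log2 ratio (noise minus baseline) of every measured gene in the red cell lists (green) and in lists of other marrow, blood and vessel cells (orange), with list medians as black bars, the central 50% of all genes in grey and 2-fold as dotted lines. The number of genes measured stands in brackets, and Trim58 and Hebp1 are the red cell list genes past 2-fold.

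Markers of other marrow lineages are given beside these values, because red cell precursors share the marrow with them. Of all 26528 measured genes, 12596 lay above 0 and 0.611% were at least 2-fold higher. Megakaryocyte and platelet genes had a median log2 ratio of 0.26, with 11 of 12 above 0 and none past 2-fold. The integrin gene Itga2b was at 0.72, and the platelet granule genes Ppbp and Treml1 were at 0.46 and 0.42. Neutrophil precursor genes had a median of 0.14, 9 of 12 lying above 0 without any past 2-fold. The widest values of this list were 0.62 for Ms4a3, 0.48 for Ctsg and 0.46 for Prtn3, and its lowest was -0.22. Pre-B cell genes had a median of 0.51, with 13 of 13 above 0 and 2 at least 2-fold higher, Pax5 at 1.22 (0.068 with its brightest probe and 0.25 with the normexp background) and the surrogate light chain gene Vpreb1 at 1.08. The medians of these 3 lists stayed above 0 in all 8 alternatives, at 0.23 to 0.44, 0.14 to 0.32 and 0.35 to 0.68, while the globin median ran from -0.13 to 0.042 and the precursor-stage median from -0.22 to -0.030. Their part in the red cell values was not tested.

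**Figure D5:**
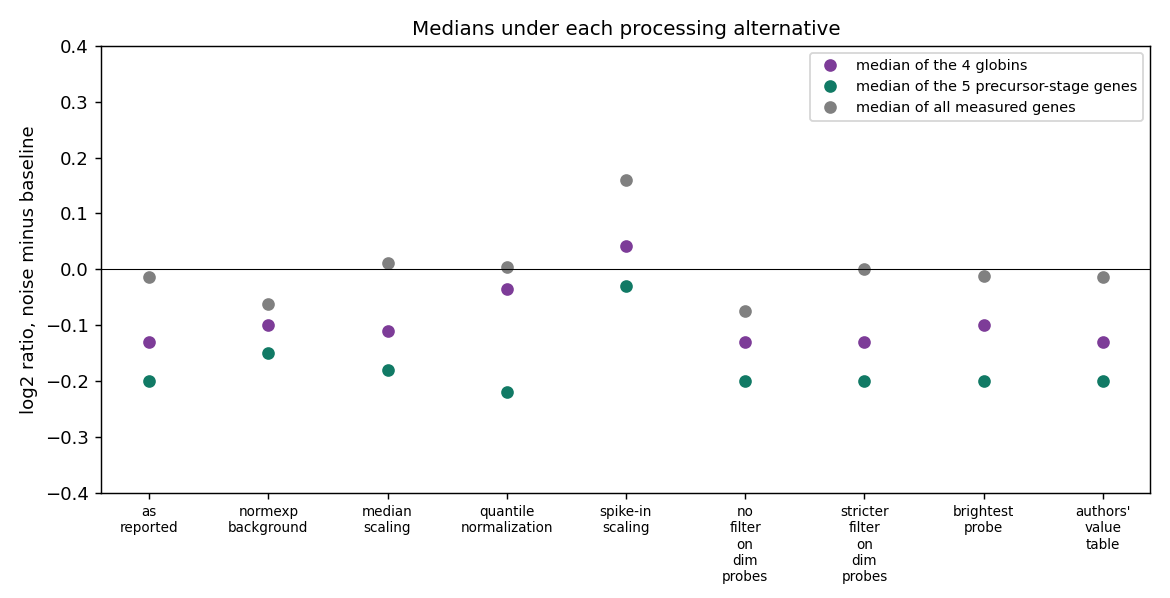
Median log2 ratio (noise minus baseline) of the 4 globins, of the 5 precursor-stage genes and of all measured genes, as reported and under each of the 8 processing alternatives. The globin median lies between -0.13 and 0.042 and the precursor-stage median between -0.22 and -0.030 over the alternatives. The precursor-stage median is the lower in each, which median scaling, spike-in scaling, the value table and no filter on dim probes could not change.

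The arrays were of similar brightness, their 75th percentiles being 316 after noise and 278 at baseline, and 75.3% and 75.2% of their probes were well above background. No spot was saturated. All 16 cochlear marker genes, such as Coch, Otos and Gjb2, were measured on both arrays, as the labelled tissue would give. Some were dim: the stricter filter kept 12 of them, and Slc26a5 had a processed signal of 5.62 after noise and 8.35 at baseline. Their median log2 ratio was 0.28, with 11 of 16 above 0, and it ran from 0.23 to 0.45 over the alternatives, as high as that of the megakaryocyte and platelet list. Over all 26528 measured genes, 12596 lay above 0.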

How the data were processed

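Cochlear RNA was labelled with Cy3 and hybridised to Agilent 1-colour arrays, 1 per group, on the same slide and in the same scan per the file headers. The deposited scanner files hold spot intensity values made with Agilent Feature Extraction 11.5.1.1 per the file headers, which subtracted a background and detrended each array. Values in the table deposited by the authors are on a log2 scale and equalled the processed signal after a constant of 8.30 (noise) or 8.12 (baseline) was subtracted. Its column medians were -2.81 and -2.79.

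Outlier spots were left out (77 of the noise and 58 of the baseline array, of 59305), repeat spots of each probe were replaced by their mean log2 signal, and the 75th percentile of its array was taken off. A gene took the median log2 ratio of its probes well above background on both arrays. Alternatives were the normexp background (limma 3.58.1, R 4.3.3, offset 50), median, quantile and spike-in scaling (8 spike-in probes), no filter or a stricter filter on dim probes (signal of at least 50), the brightest probe and the value table. Python 3.11.15 was used for the rest, and the steps were tested on simulated data.

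The members and lists were chosen with earlier results of these data known. All members are named. Of each list, genes past 2-fold are named, otherwise up to 3 by absolute log2 ratio. The 161 list entries all matched an array name. Array names can be old. Each group has 1 array, so no p-value was computed and the number of arrays limits the precision.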

Additional observations from a re-analysis of the deposited data

How the results depend on the processing

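Of the 72 log2 ratios of the 9 members under the 8 alternatives, none moved by as much as the SD between probes of a gene (0.27) and none reached 2-fold. Many of the 72 could not have moved so far. The value table holds the same scaling, and every member probe passed the dim-probe filter. The value table and the setting without that filter therefore returned the reported values. Median and spike-in scaling shift all genes by a constant smaller than 0.27. The stricter filter and the brightest probe could alter only members with more than 1 probe. Globins minus precursor-stage genes ran from 0.059 to 0.19, a difference that scaling by a constant or leaving out the dim-probe filter could not change. Red cell list genes at least 2-fold lower numbered 2 as reported, 3 without any dim-probe filter, 1 under normexp background correction and 1 under the stricter dim-probe filter. Over all genes, 162 were at least 2-fold higher and 332 at least 2-fold lower as reported (32.8% higher). These counts were 56 and 74 with the normexp background (43.1%), 301 and 217 with spike-in scaling (58.1%), 672 and 1296 without any dim-probe filter, and 83 and 119 under the stricter one, which tests fewer genes. Otherwise the cause was not tested. Spike-in scaling moved the median of all genes to 0.16, from -0.014. Dim probes such as the upstream Epor and Trim58 probes limit those values. No paired analysis was possible because there was a single array of each kind, which also leaves no replicate to omit.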

Other observations

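Genes of macrophages that take up red cells and recycle their iron were read as a further list of 8 genes. Their median log2 ratio was 0.16, with 7 above 0, where 12596 of all 26528 measured genes lay above 0. The 7 include Spic at 0.0002. Hmox1, the heme-degrading oxygenase gene, had a processed signal of 1915 after noise and 95.1 at baseline (log2 ratio 4.15, 2.62 with no filter on dim probes), and Cd163, the receptor gene for hemoglobin bound to haptoglobin, had 152 after noise and 45.9 at baseline (1.16, and 0.58 with the normexp background). No other gene of this list reached 2-fold, where 0.611% of all measured genes were at least 2-fold higher. Which cells gave these signals was not tested. Endothelial genes, which mark the vessels that hold circulating red cells, had a median of 0.040 over 10 genes, none past 2-fold, with the tight junction gene Cldn5 at -0.81, Pecam1 at 0.23 and Esam at 0.21. Among the cochlear markers only Pou3f4 was past 2-fold, at -1.22 (-0.55 with the normexp background and -0.72 with no filter on dim probes). Its processed signal was 20.8 after noise and 42.6 at baseline.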
